A study of Mus musculus with 6 samples.

Results

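Interferon-stimulated genes were examined in basal keratinocytes of the embryonic skin. The module held 37 genes of the 55536 in the count table. They were chosen by name, as effectors, transcription factors and antigen presentation genes that interferons are known to induce. The rule used no measured value, but earlier results of these data were known when the genes were chosen. All 37 were found in the table. Bulk RNA-seq was performed on Epcam+ α6+ basal cells sorted from the dorsal skin of E16.5 mouse embryos in 3 Ctrl and 3 TKO libraries. TKO embryos were Suv39h1 f/f, Suv39h2-/-, Setdb1 f/f and carried K14CreERT2, a recombinase that is driven by the keratin 14 promoter in basal keratinocytes and is activated by tamoxifen. Ctrl embryos had the same floxed and null alleles without the recombinase, so both groups were Suv39h2-/- by their labels and both received tamoxifen, on E9.5, E10.5 and E11.5 in the 3 litters that the study lists for this assay. The study calls the knockout in these litters mosaic, so a TKO library may hold cells that kept *Suv39h1* or *Setdb1*. It lists more embryos than there were libraries, and which embryo gave which library is not given in the sources used here.

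Interferons are secreted proteins that signal through cell surface receptors and JAK kinases to transcription factors of the STAT and IRF families. These bind interferon-stimulated response elements and gamma-activated sequences and induce a large set of antiviral genes, many of which are also read at a low level without interferon. The enzymes deleted here place trimethylation on histone H3 lysine 9, a mark of silent chromatin that covers many retrotransposons. Loss of such silencing is known in other settings to let double-stranded nucleic acid accumulate and switch on interferon genes. From single-cell RNA-seq, the study reports antiviral genes as widely activated in postnatal skin that lacked *Setdb1* alone. In E16.5 TKO embryos it describes this activation as very limited. The comparison below therefore asks what the level of the interferon-stimulated genes was in E16.5 basal keratinocytes and whether it differed between TKO and Ctrl.

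Depth ranged from 102159175 counts in Ctrl replicate 1 to 136515436 in Ctrl replicate 2, and the TKO libraries lay in between. Levels are given in CPM, that is counts per 1000000 counts of the library size after TMM scaling, and the detection floor of 3 counts stood at 0.0232 to 0.0303 CPM. The labels give Ctrl replicate 1 and TKO replicate 2 as female and the rest as male. *Setdb1* was at 126, 118 and 121 CPM in Ctrl and at 95.3, 62.3 and 74.9 CPM in TKO, with no overlap between the groups and a log2 fold change of -0.65. *Suv39h1* was at 88.7, 78.5 and 84.0 CPM in Ctrl and at 75.6, 68.9 and 89.4 CPM in TKO, and the groups overlapped. *Suv39h2*, null in both groups by the labels, was still counted at 15.9, 17.1 and 15.6 CPM in Ctrl and at 18.9, 16.0 and 17.5 CPM in TKO. These are counts over whole genes, so reads from exons outside the deleted parts enter them, and they give no more than a partial check of the labels. The 8 basal keratinocyte markers were found in every library, and *Krt5*, the most abundant, lay between 6990 and 12300 CPM. Of these 8, *Krt15* was lower in TKO at an unadjusted p of 0.00103 in edgeR's fit across all genes (log2 fold change -1.18, adjusted p = 0.185 by edgeR and 0.00066 by DESeq2), with the groups apart. *Itgb4* had the groups apart in the other direction (log2 fold change 0.24), and the median over the 8 was -0.01. Suprabasal keratins were also abundant, with Ctrl means of 9940 CPM for *Krt1* and 8470 CPM for *Krt10*, and their log2 fold changes were -0.51 and -0.42, again with the groups apart. In the same list *Sbsn*, *Flg* and *Ivl* had log2 fold changes of 0.41, 0.24 and -0.05. The part of these keratinocyte markers in the values below was not tested.

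None of the 37 genes was called different between TKO and Ctrl. A call required a Benjamini-Hochberg adjusted p-value under 0.05 in edgeR's quasi-likelihood test and an absolute log2 fold change above 1. All 37 genes passed the filter on low counts and were tested among 20622 genes, of which 27 (0.131%) were called higher and 0 (0.0%) were called lower in TKO, while 837 (4.06%) were higher and 416 (2.02%) lower at an unadjusted p-value under 0.05. The smallest adjusted p-value among the 37 was 0.342, for *Ifitm3*. DESeq2 on the same genes called 193 (0.936%) higher and 21 (0.102%) lower, and again none of the 37. At an unadjusted p-value under 0.05 in edgeR, 3 of the 37 genes (8.11%) were higher in TKO, namely *Ifitm3*, *Ifitm1* and *Trim25*, and 2 (5.41%) were lower, namely *Ifi27* and *Ifi35*. The TKO libraries lay entirely above the Ctrl libraries for 2 of the 37 (5.41%), against 1310 of all genes (6.35%), and entirely below them for 3 (8.11%), against 1054 (5.11%). Each of these counts lies within 2 genes of what the background share gives.

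The fold changes of the module went both ways. Log2 fold changes were positive for 21 genes and negative for 16, with a median of 0.12 and a range from -1.80 for *Ifit1* to 1.07 for *Ifitm1*. Over all 20622 genes the median was 0.01. The median depended on single libraries, being 0.35 without Ctrl replicate 2, -0.12 without Ctrl replicate 3 and -0.09 without TKO replicate 2. The precision differed widely between genes: for 9 of the 37 the 95% interval of the log2 fold change lay wholly between -1 and 1, for 11 its upper end lay under 1 and for 24 its lower end lay above -1.

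**Figure D1:**
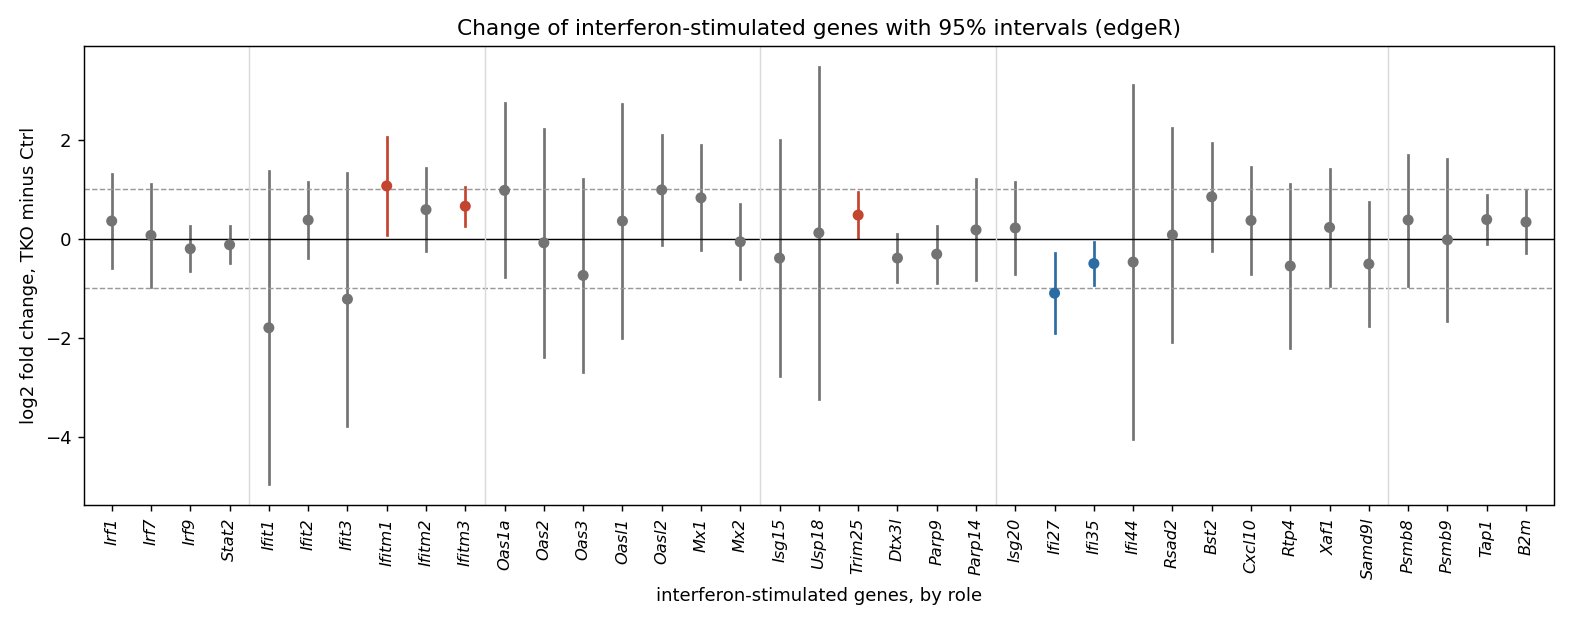
Log2 fold change (TKO minus Ctrl) of each of the 37 interferon-stimulated genes with its 95% interval from edgeR's quasi-likelihood fit, in role groups separated by vertical lines, with 3 libraries per group. Red and blue mark the 3 higher and 2 lower genes with an unadjusted p-value under 0.05, dashed lines mark -1 and 1, and intervals are short for *Stat2* and *Ifitm3* and long for *Ifit1*, *Usp18* and *Ifi44*.

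The plot of fold changes with their intervals shows the widest intervals in genes with few counts. For *Usp18* (log2 fold change 0.12) the interval from -3.24 to 3.48 reached beyond a change of 1 in both directions. By contrast, *Stat2* had an interval from -0.48 to 0.25 and *Ifitm3* one from 0.26 to 1.05. Levels per length, as transcripts per 1000000 transcripts (TPM) from the exon lengths of the GENCODE vM39 annotation, were low for most of the module. In Ctrl 17 of the 37 genes had a mean under 1 TPM, 12 lay from 1 to under 10 TPM and 8 were at 10 TPM or more. The median over the module was 1.93 TPM, against 13.5 TPM over 15000 tested protein-coding genes. *Ifitm3* was the highest at 142 ± 10.2 TPM (SD, n = 3), followed by *Ifitm2* at 101 ± 15.9 and *B2m* at 44.4 ± 6.99 TPM, and these 3 did not overlap in their mean ± SD. The next in order, *Trim25*, *Ifi35*, *Tap1*, *Irf9* and *Stat2*, lay at 13.0, 12.5, 12.0, 11.8 and 11 TPM, and neighbours in this order differed by less than their SDs. The lowest mean was that of *Ifit1*, 0.111 ± 0.0297 TPM. *Oas3* at 0.121 ± 0.0351 and *Usp18* at 0.124 ± 0.15 TPM did not differ from it by more than their SDs.

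**Figure D2:**
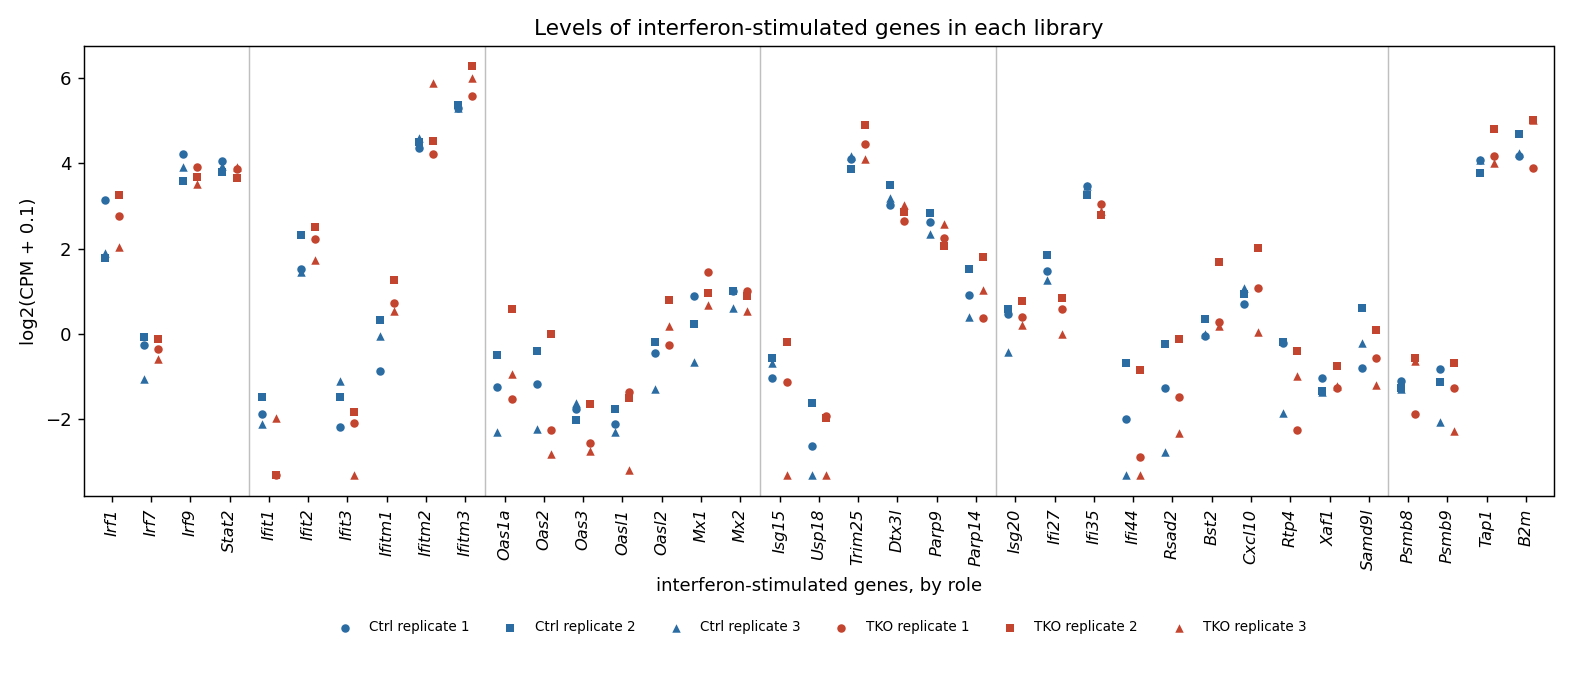
Level of each of the 37 genes in each of the 6 libraries, as log2(CPM + 0.1), grouped by role, with blue symbols for Ctrl and red for TKO and 1 symbol shape per replicate number. Levels span from the floor of the axis, where *Ifit1*, *Ifit3*, *Isg15*, *Usp18* and *Ifi44* had a library at 0, to *Ifitm3*, and TKO replicate 2 (red squares) is the highest library for 18 genes.

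The plot of levels by library shows *Ifitm3*, *Ifitm2*, *B2m*, *Tap1*, *Trim25*, *Irf9*, *Stat2* and *Ifi35* among the highest genes of the module. In 6 of the 37 genes at least 1 library had 3 counts or fewer, and in 5 of these a library had 0.

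The proximal sequences of the genes were searched for the letters that the interferon-activated factors bind, which the choice of genes did not use. Windows of 250 bases before to 50 bases after the start, from RefSeq on GRCm38.p6, were found for 29 of the 37 genes. The core of the interferon-stimulated response element, spelled as GAAA, any 2 bases and GAAA again on either strand, was present in 12 of these 29 genes (41.4%), against 1079 of 27025 genes with a window (3.99%). The gamma-activated sequence, TTCNNNGAA, which reads the same on both strands, was present in 8 of the 29 (27.6%), against 9.55% of all genes. The windows are shown for 4 genes that carry the response element core, as the 150 bases before the start on the strand of the gene, to show how the sites are laid out. The core is in capitals. *Isg15* (chr4:156200819-156200968, minus strand) has 3 overlapping matches, *Ifit1* (chr19:34640739-34640888, plus strand) has 2 on the opposite strand, *Bst2* (chr8:71537473-71537622, minus strand) has 2 that overlap and *B2m* (chr2:122147537-122147686, plus strand) has 1.
Isg15: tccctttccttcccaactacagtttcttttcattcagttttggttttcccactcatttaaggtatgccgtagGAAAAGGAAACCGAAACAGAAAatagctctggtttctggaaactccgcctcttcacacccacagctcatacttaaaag
Ifit1: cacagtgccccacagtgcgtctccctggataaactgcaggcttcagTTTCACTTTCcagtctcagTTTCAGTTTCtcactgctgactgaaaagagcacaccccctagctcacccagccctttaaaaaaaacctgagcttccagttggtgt
Bst2: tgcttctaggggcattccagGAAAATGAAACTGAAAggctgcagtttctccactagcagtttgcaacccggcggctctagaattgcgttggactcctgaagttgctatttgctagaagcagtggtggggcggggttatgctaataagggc
B2m: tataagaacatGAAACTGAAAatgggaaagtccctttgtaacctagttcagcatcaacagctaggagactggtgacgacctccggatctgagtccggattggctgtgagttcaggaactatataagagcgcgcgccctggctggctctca
In *Ifitm3*, the gene with the smallest p-value of the module, both matches lie just after the start, at chr7:141010716-141010742 on the minus strand, and are shown as the stretch that spans them.
Ifitm3: GAAAAGGAAActtctgaGAAACCGAAA

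The genes with such a core had fold changes of both signs. The 12 genes, *B2m*, *Bst2*, *Cxcl10*, *Ifit1*, *Ifit3*, *Ifitm2*, *Ifitm3*, *Isg15*, *Oas1a*, *Oas3*, *Rsad2* and *Stat2*, had a median log2 fold change of 0.21, with 7 positive and 5 negative. The 17 genes with a window and no core had a median of 0.23, with 11 positive and 6 negative. No test was made of this difference. *Ifi27*, *Mx1*, *Mx2*, *Oas2*, *Parp14*, *Parp9*, *Rtp4* and *Usp18* had no window in the table. A match of letters is not a bound site.

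The transcription factors of the module, which carry the signal into the nucleus, had log2 fold changes from -0.20 to 0.36, and none had an unadjusted p-value under 0.05. *Irf9*, the DNA-binding subunit of the complex that interferon activates, was at 18.4, 11.9 and 14.9 CPM in Ctrl and at 14.9, 12.8 and 11.4 CPM in TKO. The groups overlapped, with a log2 fold change of -0.20 (SE 0.201), the lowest of the 4 factors. *Irf9* overlaps *Rnf31* on the same strand, and reads could be split between them. *Irf1*, a factor induced by interferon gamma, had the highest log2 fold change of the 4, 0.36 (SE 0.425). It was at 8.69, 3.35 and 3.64 CPM in Ctrl and at 6.67, 9.50 and 3.99 CPM in TKO, with Ctrl replicate 1 and TKO replicates 1 and 2 above the other 3 libraries. The log2 fold change was 0.94 without Ctrl replicate 1 and 0.03 without TKO replicate 2. *Stat2*, another subunit of the same complex, and *Irf7*, an amplifier of type I interferon production, had log2 fold changes of -0.12 and 0.07. For *Stat2* the interval of -0.48 to 0.25 was among the narrowest of the module.

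The IFIT and IFITM genes held the largest fold changes in both directions. IFITM proteins sit in membranes and block the entry of viruses into cells, and IFIT proteins bind foreign RNA. *Ifitm3* was at 39.4, 41.5 and 39.3 CPM in Ctrl and at 48.0, 77.4 and 63.9 CPM in TKO. All 3 TKO libraries were above all 3 Ctrl libraries, which lay close to each other, and the TKO libraries were spread. The log2 fold change was 0.66 (SE 0.176, unadjusted p = 0.00406, adjusted p = 0.342 by edgeR's quasi-likelihood test), and it stayed between 0.48 and 0.81 when each library was left out in turn. DESeq2 gave *Ifitm3* an adjusted p-value of 0.0771.

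*Ifitm1*, a relative at the cell surface, was at 0.444, 1.15 and 0.872 CPM in Ctrl and at 1.55, 2.31 and 1.35 CPM in TKO. The groups did not overlap, but the highest Ctrl library came near the lowest TKO library. Its log2 fold change was 1.07 (SE 0.449, adjusted p = 0.785 by edgeR). *Ifitm2* was at 20.3, 22.6 and 23.9 CPM in Ctrl and at 18.4, 22.9 and 59.5 CPM in TKO. Only TKO replicate 3 was high, the other 2 lay within or below the Ctrl range, and the log2 fold change of 0.59 (SE 0.376) turned to -0.11 without that library. The 3 IFITM genes are close copies of each other and reads could be assigned among them with error.

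*Ifit1* had the lowest log2 fold change of the module on very few reads. It was at 0.172, 0.255 and 0.130 CPM in Ctrl and at 0, 0 and 0.156 CPM in TKO, that is 17, 33 and 14 counts against 0, 0 and 19. Both zeros were in TKO, while TKO replicate 3 lay inside the Ctrl range, and the log2 fold change of -1.80 had an SE of 1.42 and an unadjusted p of 0.234 in edgeR's fit across all genes. The value ran from -7.40 without TKO replicate 3, which leaves only zeros in TKO, to -1.23 without TKO replicate 1, and so gives no firm size. *Ifit2* and *Ifit3*, further RNA-binding members, had log2 fold changes of 0.38 and -1.22, and both overlapped between groups. *Ifit1* and *Ifit3* have near copies in the genome, so their low counts are also uncertain in their assignment.

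The OAS and Mx genes were weakly expressed, with Ctrl means from 0.142 CPM for *Oasl1* to 1.74 CPM for *Mx2*. OAS enzymes make 2-5A, which activates an RNA-degrading enzyme in infected cells, and Mx proteins are GTPases that trap viral particles. *Oasl2*, an OAS-like protein, had the highest log2 fold change of the 7, 0.99 (SE 0.497, unadjusted p = 0.0764 in edgeR's fit across all genes). It was at 0.636, 0.774 and 0.306 CPM in Ctrl and at 0.739, 1.64 and 1.03 CPM in TKO, with TKO replicate 2 the highest and TKO replicate 1 inside the Ctrl range. *Oas3* had the lowest, -0.74 (SE 0.876), with 0.192, 0.147 and 0.223 CPM in Ctrl and 0.0680, 0.217 and 0.0493 CPM in TKO. Here TKO replicates 1 and 3 were low and TKO replicate 2 was level with Ctrl. The log2 fold change of *Oas3* was -1.66 without TKO replicate 2 and -0.39 without TKO replicate 3. *Oas1a*, *Oas2*, *Oasl1*, *Mx1* and *Mx2* had log2 fold changes from -0.08 to 0.98, and none had an unadjusted p-value under 0.05. The upper end, *Oas1a*, was at 1.39 CPM in TKO replicate 2 and had a log2 fold change of -0.06 without that library.

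Among the ubiquitin-like and ADP-ribosylation factors, *Trim25* and *Isg15* marked the extremes. TRIM25 is a ubiquitin ligase that supports RNA sensing by RIG-I and attaches ISG15 to proteins. *Trim25* was at 17.0, 14.4 and 18.0 CPM in Ctrl and at 21.8, 29.6 and 17.2 CPM in TKO. TKO replicates 1 and 2 were above every Ctrl library and TKO replicate 3 was within the Ctrl range, with a log2 fold change of 0.48 (SE 0.209, unadjusted p = 0.0466, adjusted p = 0.809 by edgeR) that was 0.24 without TKO replicate 2. *Isg15*, the ubiquitin-like modifier that gives the class its name, was at 0.384, 0.573 and 0.520 CPM in Ctrl and at 0.357, 0.770 and 0 CPM in TKO. The TKO libraries held both the highest and the lowest value, and the log2 fold change of -0.39 (SE 1.07) became 0.19 without TKO replicate 3. *Dtx3l*, a ubiquitin ligase, was at 8.07, 11.1 and 9.02 CPM in Ctrl and at 6.20, 7.18 and 8.07 CPM in TKO. The groups were apart by less than the printed digits show, the highest TKO library lying just under the lowest Ctrl library, and the log2 fold change was -0.39 (SE 0.216, adjusted p = 0.95 by edgeR). Its partner *Parp9*, which overlaps it on the other strand, had a log2 fold change of -0.31. *Usp18*, which removes ISG15, and *Parp14* had log2 fold changes of 0.12 and 0.18.

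The other effectors included the 2 genes that were lower at an unadjusted p-value under 0.05. *Ifi27*, a small protein of the mitochondrial membrane, was at 2.68, 3.51 and 2.31 CPM in Ctrl and at 1.39, 1.68 and 0.896 CPM in TKO. All TKO libraries were below all Ctrl libraries, with a log2 fold change of -1.10 (SE 0.363, unadjusted p = 0.0133, adjusted p = 0.587 by edgeR). The value stayed between -1.31 and -0.88 when each library was left out in turn. *Ifi27* overlaps *Ifi27l2a*, a related gene, on the other strand, and whether the counting used strand is not given in the sources used here. *Ifi35*, a partner of other interferon-induced proteins, was at 11, 9.43 and 11 CPM in Ctrl and at 8.19, 6.77 and 7.29 CPM in TKO. Again no TKO library reached the Ctrl range, with a log2 fold change of -0.50 (SE 0.192, unadjusted p = 0.0269, adjusted p = 0.73 by edgeR). *Ifi35* overlaps *Vat1* on the other strand.

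*Bst2*, tetherin, which holds budding virus at the cell surface, had the highest log2 fold change of these effectors, 0.85 (SE 0.486). It was at 0.868, 1.17 and 0.891 CPM in Ctrl and at 1.11, 3.12 and 1.04 CPM in TKO. TKO replicate 2 alone was high, and without it the log2 fold change was 0.14. *Cxcl10*, a chemokine that attracts T cells, was likewise highest in TKO replicate 2, at 3.96 CPM, against 1.99 CPM in the highest Ctrl library. It was lowest in TKO replicate 3, at 0.929 CPM. The log2 fold change of *Cxcl10* was 0.37 and ran from -0.28 to 0.74 when each library was left out in turn. *Isg20*, *Ifi44*, *Rsad2*, *Rtp4*, *Xaf1* and *Samd9l* had log2 fold changes from -0.55 to 0.23.

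**Figure D3:**
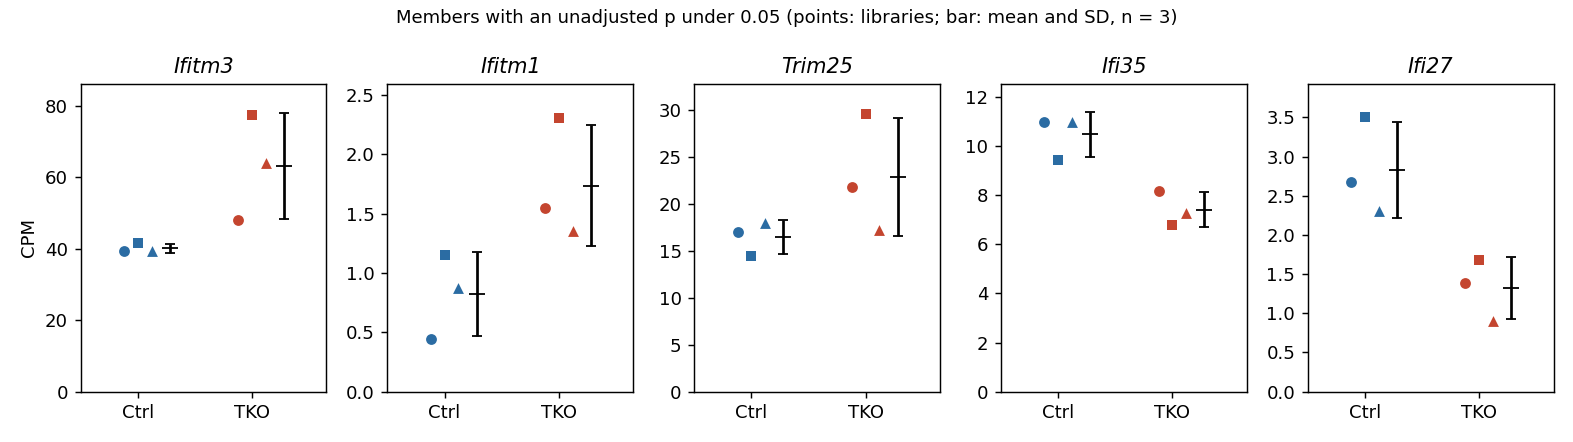
CPM of the 5 genes with an unadjusted p-value under 0.05, on linear axes from 0, with 1 point per library, blue for Ctrl and red for TKO, and the bar giving the mean and SD of 3 libraries. The groups are apart for *Ifitm3*, *Ifitm1*, *Ifi35* and *Ifi27* and overlap for *Trim25*, and the smallest adjusted p-value in edgeR's main fit is 0.342, for *Ifitm3*.

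The plot of these 5 genes by library shows gaps of unequal size. The nearest libraries of the 2 groups were at 41.5 and 48.0 CPM for *Ifitm3*, at 2.31 and 1.68 CPM for *Ifi27* and at 1.15 and 1.35 CPM for *Ifitm1*, while *Trim25* had no gap.

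None of the 4 antigen presentation genes had an unadjusted p-value under 0.05 in edgeR's fit across all genes. *B2m*, the invariant chain of MHC class I, was at 17.8, 25.7 and 18.8 CPM in Ctrl and at 14.8, 32.1 and 32.1 CPM in TKO. TKO replicate 1 was the lowest library and the other 2 were the highest, with a log2 fold change of 0.34 (SE 0.283). *Tap1*, a subunit of the transporter that loads peptides, was at 16.9, 13.6 and 16.8 CPM in Ctrl and at 18.0, 28.1 and 16.0 CPM in TKO, with a log2 fold change of 0.39 (SE 0.222), the highest of the 4. TKO replicate 2 was again the high library, and without it the log2 fold change was 0.11. *Psmb9*, an immunoproteasome subunit, was at 0.464, 0.356 and 0.139 CPM in Ctrl and at 0.314, 0.525 and 0.107 CPM in TKO, with fully overlapping groups and a log2 fold change of -0.02 (SE 0.734). *Psmb8*, its neighbour and fellow subunit, had a log2 fold change of 0.38. *Tap1* and *Psmb9* overlap on opposite strands, and *B2m* overlaps *Patl2* in the same way.

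Much of the spread in the module lay between libraries of the same group. As the median over the 37 genes of the deviation from each gene's mean on the log2(CPM + 0.1) scale, TKO replicate 2 lay at 0.54 and Ctrl replicate 2 at 0.24, Ctrl replicate 1 at 0.09, TKO replicate 1 at -0.08, TKO replicate 3 at -0.19 and Ctrl replicate 3 at -0.26. The same median over all genes was between -0.01 and 0.02 in every library. TKO replicate 2 was the highest of the 6 libraries for 18 of the 37 genes and Ctrl replicate 2 for 9, whereas Ctrl replicate 3 and TKO replicate 3 were each the lowest for 11. Without TKO replicate 2, 1 gene was higher and 2 were lower at an unadjusted p-value under 0.05 in edgeR's fit across all genes. With sex as a factor the counts were also 1 and 2.

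**Figure D4:**
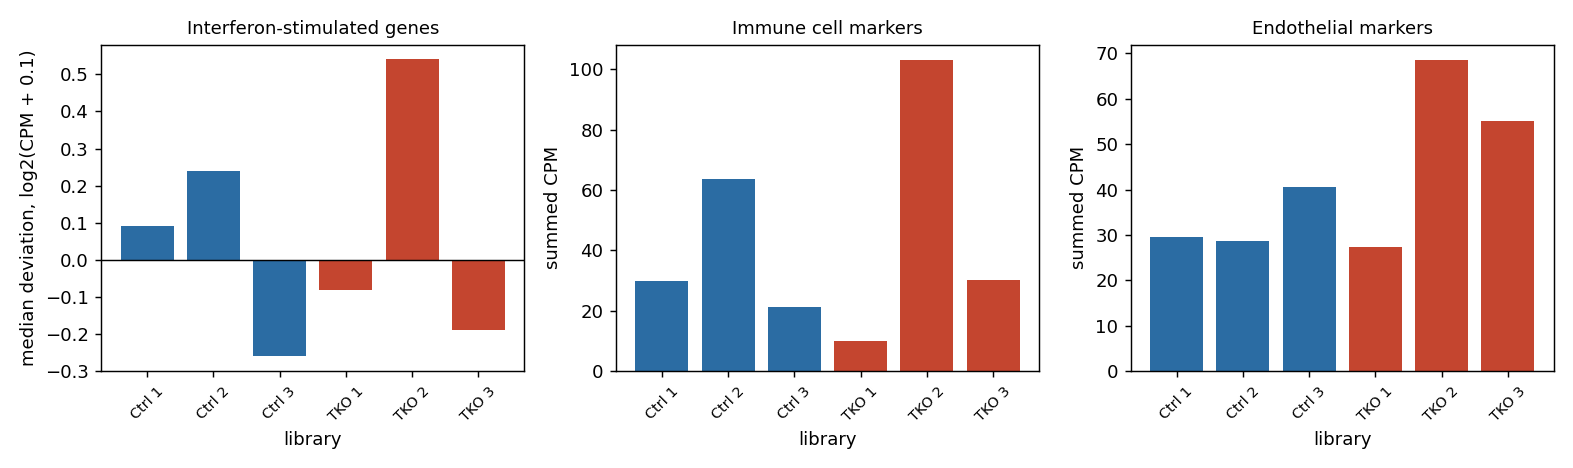
In each of the 6 libraries (blue, Ctrl; red, TKO), from left to right, the median deviation of the 37 genes from their mean as log2(CPM + 0.1), the summed CPM of 12 immune cell markers, and the summed CPM of 6 endothelial markers. TKO replicate 2 is the highest in all 3 panels, and Ctrl replicate 2 is the next highest in the first and second.

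The plot by library sets the module beside markers of other cells that a sort could carry over. The 12 immune cell markers summed to 29.8, 63.8 and 21.1 CPM in Ctrl and to 9.98, 103 and 30.3 CPM in TKO. TKO replicate 2 and Ctrl replicate 2 were the highest in these markers as in the module. The macrophage genes led the list: *Csf1r* was at 30.7 CPM and *Lyz2* at 33.7 CPM in TKO replicate 2, against 1.88 and 1.32 CPM in TKO replicate 1. Per length in Ctrl, *Tyrobp* at 11.9 ± 9.19 TPM and *Lyz2* at 11 ± 9.44 TPM (SD, n = 3) had the highest means and did not differ beyond their spread. *Csf1r* at 7.42 ± 3.4, *Fcer1g* at 7.04 ± 2.42 and *Laptm5* at 6.12 ± 2.43 TPM also lay within that spread. *Cd207*, of Langerhans cells, had no more than 0.0464 CPM and *Cd3e*, of T cells, no more than 0.148 CPM in any library. Of the 10 immune markers tested, 9 had a positive log2 fold change. In edgeR's fit across all genes 0 of the 10 had an unadjusted p-value under 0.05. The smallest was 0.0778, for *Cd74*, for which DESeq2 gave an unadjusted p of 0.048 and an adjusted p of 0.699. *Cd74* was at 1.55, 1.59 and 1.32 CPM in Ctrl and at 1.78, 2.25 and 3.08 CPM in TKO, so its groups were apart. The 6 endothelial markers summed to 29.6, 28.6 and 40.6 CPM in Ctrl and to 27.3, 68.5 and 55.0 CPM in TKO, with *Cdh5* the most abundant. The fold change of *Cdh5* was 0.91 on the log2 scale, with an unadjusted p of 0.035 in edgeR's fit across all genes. By comparison the fibroblast markers summed to 1210, 3370 and 3020 CPM in Ctrl and to 2170, 2570 and 2820 CPM in TKO and were lowest in Ctrl replicate 1, and erythroid markers were highest in TKO replicate 3, at 141 CPM. Skeletal muscle markers had a mean sum of 7.07 CPM in Ctrl and 35.1 CPM in TKO. Of the 7, all had a positive log2 fold change, 5 had an unadjusted p-value under 0.05 and *Myh3* was called higher (adjusted p = 0.0211 by edgeR). Adjusted p-values by DESeq2 were 2.36e-13 for *Myh3*, 1.41e-06 for *Actn2*, 0.00793 for *Myh8*, 0.0122 for *Acta1* and 0.0214 for *Ttn*. *Tnnt3* and *Ckm* passed in neither tool. The study names muscle among the programs of the genes that it found upregulated in its bulk RNA-seq. It reads these as non-lineage genes released from repression, not as cells carried over. The 5 melanocyte markers had mean sums of 9.48 and 12.0 CPM, with *Mlana* at a log2 fold change of 3.13 (unadjusted p = 0.00457 in edgeR's fit across all genes, adjusted p = 0.36 by edgeR and 0.0206 by DESeq2). The part of these cells in the values of the module was not tested, and in bulk RNA a change in the number of cells of a type and a change in RNA per cell cannot be told apart.

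The genes of the interferon pathway outside the module were read from lists of the same kind. Of 102 genes, 71 were tested and 0 were called in either direction in edgeR's main fit, with a median log2 fold change of 0.06. In that fit 3 were higher and 3 lower at an unadjusted p-value under 0.05, against 4.06% and 2.02% of all genes. With a replicate block *Ly6e* passed in edgeR, as given below. The interferons themselves were at the limit of detection. Of 21 ligand genes none passed the filter on low counts, 11 had 0 counts in all 6 libraries and 17 had 3 counts or fewer in every library. *Ifna15*, a type I interferon, had the highest count of any ligand, 14 in Ctrl replicate 1. *Ifnb1*, the type I interferon that most cells can make, had at most 6 counts, in Ctrl replicate 1. No ligand exceeded the floor in a TKO library apart from *Ifnab*, which had 8 counts in TKO replicate 1.

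The receptors were well expressed. *Ifngr1*, the ligand-binding chain of the interferon gamma receptor, was at 25.2, 26.3 and 30.0 CPM in Ctrl and at 14.4, 14.2 and 20.9 CPM in TKO. All TKO libraries were below all Ctrl libraries, with a log2 fold change of -0.72 (SE 0.187, unadjusted p = 0.00337, adjusted p = 0.32 by edgeR and 0.0451 by DESeq2). Among the other receptor chains, log2 fold changes were 0.05 for *Ifnar1* and 0.13 for *Ifnar2*, the type I chains, 0.10 for *Ifngr2*, -0.12 for *Ifnlr1* and 0.49 for *Il10rb*. The 9 signal transducers listed were all tested and none had an unadjusted p-value under 0.05 in edgeR. For *Irf5* the unadjusted p was 0.0881 by edgeR and 0.0481 by DESeq2. *Jak1*, *Jak2* and *Tyk2*, the kinases, had log2 fold changes of 0.06, 0.08 and 0.14, and the range over the 9 was from -0.16 for *Irf3* to 0.86 for *Irf5*.

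Of 15 nucleic acid sensors and regulators, 13 were tested and 2 were higher at an unadjusted p-value under 0.05, against 4.06% of all genes. *Aim2*, a sensor of DNA in the cytosol, was at 1.60, 2.45 and 2.76 CPM in Ctrl and at 3.77, 6.47 and 4.65 CPM in TKO. The groups were apart, with a log2 fold change of 1.13 (SE 0.33, adjusted p = 0.43 by edgeR and 0.0378 by DESeq2, which thus called it). *Samhd1*, which degrades nucleotides and limits retroviruses, had a log2 fold change of 0.48 (SE 0.162, unadjusted p = 0.0152 in edgeR's fit across all genes). *Cgas*, the sensor of cytosolic DNA that makes cGAMP, had the lowest of the sensors, -0.68 (SE 0.387), with 2.08, 2.52 and 1.70 CPM in Ctrl and 0.926, 1.11 and 1.89 CPM in TKO.

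Among 39 further interferon-induced genes, of which 31 were tested, *Ly6e* had the highest log2 fold change. LY6E is a membrane-anchored protein that interferon induces and that restricts some coronaviruses. It was at 13.5, 15.9 and 17.6 CPM in Ctrl and at 25.3, 56.4 and 54.8 CPM in TKO. The groups were apart, with a log2 fold change of 1.54 (SE 0.279, unadjusted p = 0.000281, adjusted p = 0.109 by edgeR). DESeq2 gave *Ly6e* an adjusted p-value of 1.8e-05 and called it. In edgeR's fit with a replicate block its adjusted p-value was 0.0305, and it passed there too. The study also reports *Ly6e* as upregulated, in mRNA and in newly made RNA. It shows upstream of the gene a predicted enhancer that carried the histone mark in Ctrl and was activated in TKO. The cause of the rise was not tested here. *Tor3a* was lower at an unadjusted p-value under 0.05, with a log2 fold change of -0.55, and *Slfn2* had the lowest value, -1.04 (SE 1.73), on 0.286 CPM or less in every library. Leaving out each library moved *Slfn2* from -6.99 to 0.13. Of 12 other antigen presentation genes, all tested, *Psme2*, a proteasome activator subunit, had a log2 fold change of -0.54 (SE 0.169, unadjusted p = 0.00987, adjusted p = 0.515 by edgeR). *Psme2* overlaps *Rnf31* on the other strand. *Nlrc5*, the regulator of MHC class I genes, had the highest log2 fold change of that list, 1.79 (SE 1.23), on values from 0 CPM in TKO replicate 3 to 2.44 CPM in TKO replicate 2, and its log2 fold change was 0.13 without TKO replicate 2.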

How the data were processed

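Total RNA of sorted basal cells was depleted of rRNA and sequenced. The authors trimmed reads with fastp, used STAR for alignment, and the deposited table holds raw read counts for each Ensembl gene, 1 column per library, neither normalized nor pooled. The methods name GRCm39 and the submitters' processing notes GRCm38; the counting program, its annotation and strand setting are not given in the sources used here. Of 55536 IDs, 51477 matched GENCODE vM39, which gave symbols and exon lengths for TPM.

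Counts were analysed with edgeR 4.0.16 and limma 3.58.1 in R 4.3.3. Genes were kept by filterByExpr (minimum count 10, minimum total 15), scaled by TMM and compared by glmQLFit (robust) and glmQLFTest, two-sided, with Benjamini-Hochberg adjustment over 20622 genes. CPM values are scaled to the TMM-adjusted library size, and the biological coefficient of variation was 36.5%. Intervals are 95% intervals of the fit. The procedure was tested on simulated data. DESeq2 1.42.0, other filters and scalings, a replicate block, sex as a factor and leaving out each library were alternatives. Libraries of the same group differed from each other beyond sampling noise.

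The genes of the module and the other lists were chosen with earlier results of these data known. Values in every library are given for genes of the module with an unadjusted p-value under 0.05, the 3 highest per length in Ctrl and the extremes of each role group; further values, such as those of *Dtx3l*, *Cxcl10*, *Cgas*, *Krt15*, *Csf1r* and *Lyz2*, were added after values were seen. Figures were drawn with matplotlib 3.10.9 in Python 3.11.15.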

Additional observations from a re-analysis of the deposited data

How the results depend on the processing

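None of the 37 genes was called under any alternative listed. At an unadjusted p-value under 0.05 in edgeR, leaving out each library gave 1 to 5 of them higher and 1 to 3 lower in TKO. Over all genes, edgeR called 27 in the main analysis, 235 without a low-count filter, 9 with at least 10 counts in every library and 49 at an adjusted p-value under 0.1 with no fold threshold. DESeq2 called 214 on the same genes and 226 in its default workflow. The replicate block gave 45. Leaving out each library gave between 7 and 81 calls, the highest without TKO replicate 3. The causes of these differences were not tested. The replicate numbers were not taken to pair the embryos, since the labels do not say that they do. Same-numbered libraries correlated in their deviations at 0.168, 0.087 and 0.127, and the 6 differently numbered pairs lay between -0.161 and 0.04. Each number thus correlated best with itself, and the main fit leaves out any block that libraries of 1 number may share. With the replicate block the median log2 fold change of the 37 genes was 0.14, and *Ly6e* outside the module had an adjusted p-value of 0.0305 in edgeR's blocked fit and passed.

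With each library left out in turn, log2 fold changes ran from -0.11 (without TKO replicate 3) to 0.89 for *Ifitm2*, from -1.46 to 0.19 (without TKO replicate 3) for *Isg15* and from -0.60 to 0.39 (without TKO replicate 3) for *Psmb9*, which was also positive without Ctrl replicate 1 (0.34) or Ctrl replicate 2 (0.06). The settings in parentheses turned the sign. Of the 37 genes, 16 took both signs over the fits that left out each library. Per length of the longest transcript, *Ifitm3* in Ctrl was at 110 TPM. None of the 17 genes under 1 TPM in Ctrl had a 95% interval wholly between -1 and 1. With 3 libraries per group, each p-value sets the difference between groups against a spread estimated from these libraries, with information shared across genes.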
